A study of Mus musculus with 25 samples.

Results

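The subject here is a group of 10 genes of the antioxidant pathway governed by the transcription factor NRF2. They were taken by symbol from the 54752 gene rows of each count table and are Nfe2l2, Keap1, Hmox1, Nqo1, Gclc, Gclm, Txnrd1, Srxn1, Slc7a11 and Gsr. Their RNA was measured by sequencing in 2 white fat depots of male C57BL/6N mice, the epididymal depot (eWAT) and the inguinal depot (iWAT). Wild type mice received normal chow (ND) or a high-fat diet (HFD) with 60% of calories from fat, and Acod1-/- mice received HFD. Feeding began at 5 weeks of age and lasted 16 weeks, except that the labels of 2 of the 3 HFD-fed Acod1-/- iWAT samples give 17 and 18 weeks. The eWAT libraries comprised 4 of wild type mice on ND, 5 of wild type mice on HFD and 5 of Acod1-/- mice, and the iWAT libraries comprised 3, 5 and 3 of the same groups. Acod1-/- mice lack ACOD1, the enzyme that makes itaconate, in the whole body. No ND-fed Acod1-/- fat was analysed here, so that the genotype could be compared only on HFD and its effect cannot be told apart from an interaction with the diet.

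NRF2, encoded by Nfe2l2, is a leucine zipper factor that is held in the cytoplasm and sent for degradation by its adaptor KEAP1. When electrophiles or oxidants modify cysteines of KEAP1, NRF2 accumulates, pairs with small MAF proteins and binds antioxidant response elements near its target genes. Itaconate and its derivatives can modify KEAP1, which gives the comparison of Acod1-/- with wild type fat its interest for this pathway. Among the targets, Hmox1 opens the haem ring, Nqo1 reduces quinones, Gclc and Gclm are the catalytic and modifier subunits of the enzyme that begins glutathione synthesis, Slc7a11 imports the cystine it needs, Gsr restores oxidised glutathione, Txnrd1 restores thioredoxin and Srxn1 restores overoxidised peroxiredoxins. Since the protein NRF2 is regulated mainly by its stability, the transcript of Nfe2l2 does not report its activity.

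Reads on genes came to between 31.41 M and 52.34 M per library. Acod1 itself had 0 to 9 reads in every library, wild type included, too few to test the labels of genotype. The adipocyte markers Adipoq and Plin1 were high in all 6 groups, with group means of 1845 to 3261 CPM and 1331 to 2398 CPM (read counts scaled to library size). Some libraries carried tissue that was not fat. The summed level of 8 epididymis markers was 9802 CPM in library 2 of the ND-fed wild type eWAT group and 1369 CPM in library 5 of the HFD-fed Acod1-/- eWAT group, against 0.0687 to 321.5 CPM in the other eWAT libraries. All 3 iWAT libraries of ND-fed mice carried lymph node markers, with a sum of 346.4 to 563.9 CPM for 7 genes, against 0.922 to 28.04 CPM in the other iWAT libraries. Epithelial markers summed to 650.4 CPM in 1 iWAT library of HFD-fed Acod1-/- mice and to 0.905 to 61.6 CPM in the other 10. In eWAT their sum was 53.3 to 393.1 CPM in ND-fed and 3.46 to 23.2 CPM in HFD-fed wild type libraries, and 9.30 to 44.6 CPM in Acod1-/- libraries. All ND-fed eWAT libraries thus lay above the HFD-fed wild type ones, and a fit without library 2 does not remove this difference. The library numbers in the column headers fell into 2 ranges, whose meaning is not given in the sources used here. Every ND library lay in the second range, together with 1 HFD library of each of the 4 HFD groups. In eWAT this was library 5 of both HFD-fed groups. In iWAT it was library 5 of the wild type and library 3 of the Acod1-/- group on HFD. A model term for the range thus rested on 1 library of each HFD group. Where a call of the 10 genes turned on 1 library with other tissue, a fit without it is given below where one was possible. No comparison with ND-fed iWAT could be made without lymph node markers, since all libraries of that group carried them.

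To show what the promoters of these genes share, the antioxidant response element core TGACNNNGC was searched on both strands from 250 bases before to 50 bases after each RefSeq transcription start. Promoter entries were matched for 7 of the 10 genes, in 9 windows of build GRCm38.p6. A match was present for Nfe2l2, Srxn1, Gclm and Txnrd1, against 12.4% of all 32851 promoter windows. The stretches below are written on the strand of the gene, with the match in capitals. The match of Nfe2l2 lies on the gene's strand. The other 3 lie on the opposite strand and so appear as the reverse complement of the core.
Nfe2l2, chr2:75704885-75704913, minus strand: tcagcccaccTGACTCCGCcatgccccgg
Srxn1, chr2:152105542-152105570, plus strand: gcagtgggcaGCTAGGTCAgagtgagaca
Gclm, chr3:122245413-122245441, plus strand: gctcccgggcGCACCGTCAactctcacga
Txnrd1, chr10:82859104-82859132, plus strand: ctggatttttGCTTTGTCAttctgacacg

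The match of Gclm begins 134 bases and that of Txnrd1 92 bases before the start site, the latter in the second of its 3 windows, whereas that of Srxn1 begins 28 bases after it. Srxn1 also held the AP-1 motif TGANTCA at 2 places, 102 and 45 bases before its start, a motif found in 7.81% of all windows and in no other window of the 10 genes. The motif can overlap the antioxidant response element, but did not overlap a match of the core TGACNNNGC here. Other forms of the element were not searched. The 250 bases before the starts of Srxn1 and Gclm are shown because both transcripts rose in iWAT on HFD, with both motifs in capitals. A match is a description of these letters and not of binding.
Srxn1, chr2:152105274-152105523, plus strand: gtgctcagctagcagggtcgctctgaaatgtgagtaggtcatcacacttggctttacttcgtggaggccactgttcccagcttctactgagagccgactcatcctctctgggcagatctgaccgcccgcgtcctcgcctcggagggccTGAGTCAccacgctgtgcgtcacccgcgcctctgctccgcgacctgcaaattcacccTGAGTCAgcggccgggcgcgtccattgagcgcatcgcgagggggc
Gclm, chr3:122245307-122245556, plus strand: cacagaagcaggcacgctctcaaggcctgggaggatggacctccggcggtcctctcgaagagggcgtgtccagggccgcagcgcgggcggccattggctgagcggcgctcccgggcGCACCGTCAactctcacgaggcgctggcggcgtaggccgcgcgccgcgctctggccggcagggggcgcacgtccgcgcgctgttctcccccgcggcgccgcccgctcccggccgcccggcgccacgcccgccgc

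All 10 genes passed the expression filter of a mean of at least 1 CPM in both depots. Slc7a11 did so only through the ND-fed groups. Its means were 5.11 CPM on ND and 0.456 and 0.206 CPM in the wild type and Acod1-/- HFD groups of iWAT. In eWAT they were 5.09, 0.940 and 0.779 CPM in the same order. Per kilobase of cDNA, the highest group mean belonged to Hmox1, at 69.7 CPM per kb in eWAT of HFD-fed wild type mice. The levels per kb of Nfe2l2 (16.7 to 21.6 in the 6 groups), Gsr (14.6 to 18.0), Keap1 (12.6 to 14.5) and Srxn1 (8.24 to 20.9) came next, followed by Txnrd1 (7.87 to 10.2), Gclm (5.41 to 9.44) and Gclc (5.66 to 8.63). Nqo1 had 3.15 to 8.81 CPM per kb. Slc7a11 was scarce in every group, at 0.0148 to 0.367 CPM per kb. When the 6 groups were ordered by the mean level of a gene, the ranges of neighbouring groups overlapped in 47 of 50 cases, the exceptions being found for Gclc, Gclm and Srxn1. Overlap of groups was not counted over all genes, here or below, so that it does not set the 10 genes apart from others. Over the 25 libraries, the SD of log2 CPM was 0.13 for Keap1, which was larger than for 0.66% of the genes tested, and 1.72 for Slc7a11, larger than for 92.2%.

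**Figure D1:**
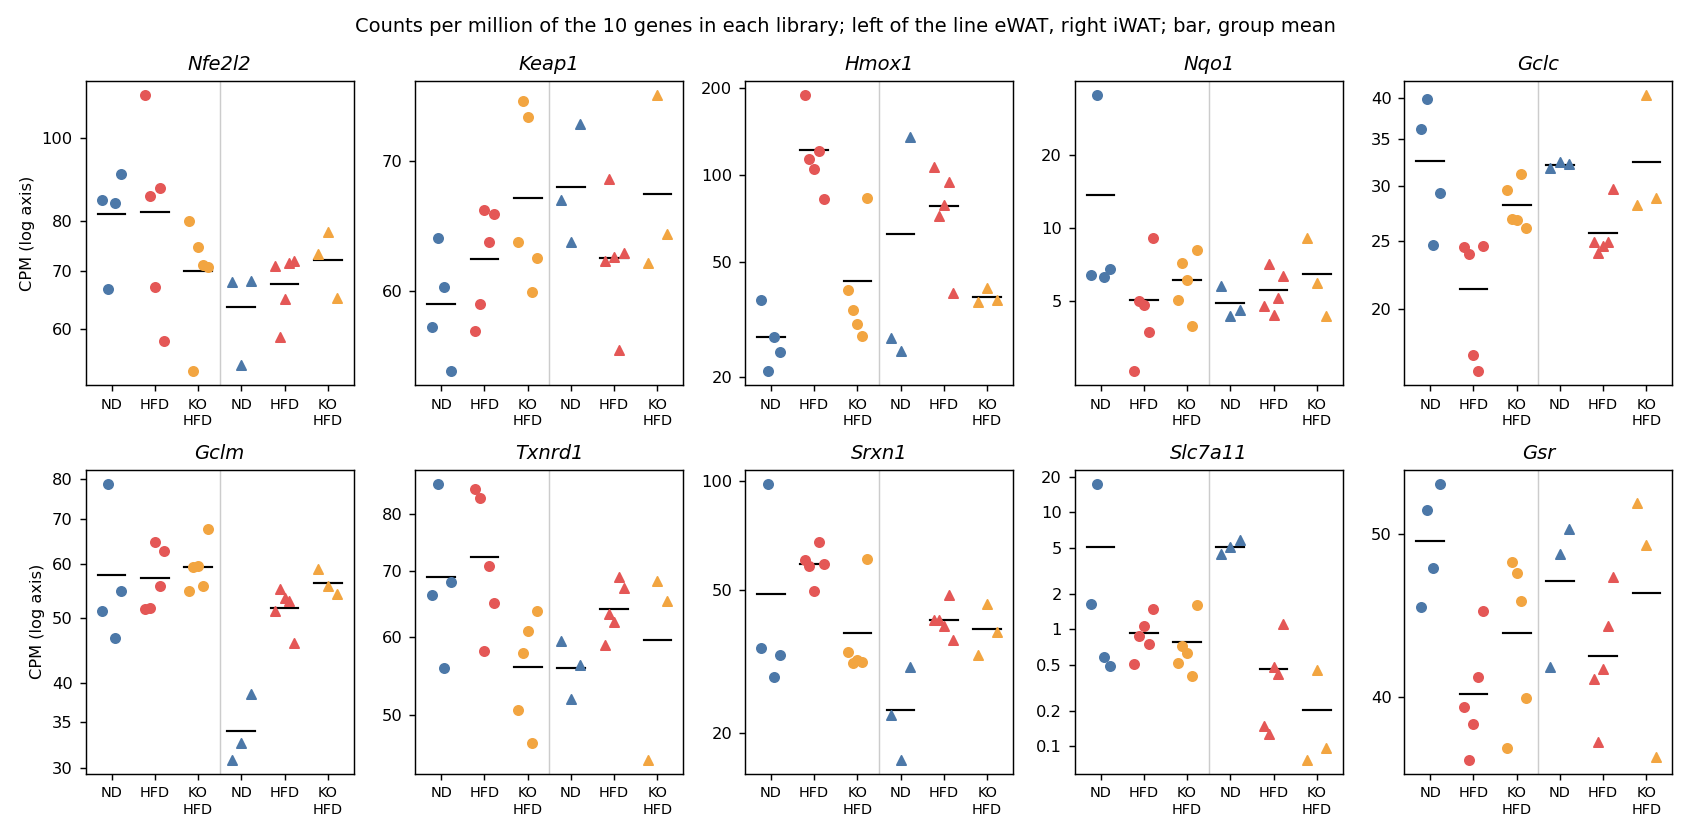
Each panel shows 1 gene, with a point per library, CPM on a log axis and a bar at the group mean for wild type mice on ND and on HFD and for Acod1-/- mice on HFD (KO HFD), with eWAT on the left and iWAT on the right. Hmox1 lay at 82.2 to 189 CPM in eWAT of HFD-fed wild type mice, and a single ND-fed eWAT library stood far above the other 3 for Nqo1, Srxn1 and Slc7a11.

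The effect of the diet in wild type eWAT was considered next. Hmox1 rose 4.39-fold, whereas Gclc fell 1.54-fold and Gsr 1.25-fold, each with no overlap between the diets. Nqo1 and Slc7a11 were also called lower, but both calls rested on the ND-fed library with epididymis transcripts. In all, 1 of the 10 genes was called higher and 4 lower at an adjusted p under 0.1, where 24.8% of all 14936 genes tested were higher and 26.9% lower.

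NRF2 and its adaptor gave no call for the diet in eWAT. Nfe2l2 measured 66.7 to 90.8 CPM in ND-fed and 58.1 to 112 CPM in HFD-fed wild type mice, with a log2 fold change of -0.01 ± 0.18 (SE, adjusted p = 0.964). Keap1 measured 54.5 to 63.9 and 57.2 to 66.0 CPM, with a log2 fold change of 0.06 ± 0.10 (adjusted p = 0.62). For both genes the groups overlapped.

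Hmox1 had 36.9, 20.9, 27.5 and 24.3 CPM in the 4 ND-fed libraries, a mean of 27.4 ± 6.86 CPM (SD, n = 4). The 5 HFD-fed wild type libraries had 189, 114, 105, 120 and 82.2 CPM, a mean of 122.1 ± 40.2 CPM (SD, n = 5). Every HFD-fed library thus exceeded every ND-fed library, with a log2 fold change of 2.13 ± 0.34 (adjusted p = 0.000642). With the header number range as a term in the model, the value was 2.60 ± 0.43 (adjusted p = 0.00339). That term rests on library 5 of each HFD-fed eWAT group. In Hmox1 these were the lowest wild type library, at 82.2 CPM, and the highest Acod1-/- library, at 83.4 CPM. The larger value is thus no independent strengthening of the result. Hmox1 is abundant in macrophages that clear red cells and haem. The summed level of 12 macrophage markers moved alike, from 614.9 to 1030 CPM on ND to 2092 to 6347 CPM on HFD. Of the 12, 10 were called higher and 2 lower. The 2 lower ones, Mertk and Cd163, had group means of 87.1 and 73.5 CPM on ND and 44.6 and 37.15 CPM on HFD. In the HFD-fed wild type group the libraries stood in the same order for the marker sum and for Hmox1. They ran from 6347 CPM of markers and 189 CPM of Hmox1 in library 1 to 2092 and 82.2 CPM in library 5. The part of macrophages in the result was not tested. In bulk tissue, fewer cells of a type and less RNA per cell cannot be told apart. Other marker sums also separated the diets in eWAT without overlap. Fibroblast and progenitor markers rose from 1829 to 2256 CPM on ND to 3135 to 6200 CPM on HFD. Endothelial markers fell from 572.7 to 872.6 CPM to 298.2 to 515.7 CPM. Red blood cell markers fell from 854.1 to 1984 CPM to 278.2 to 782.9 CPM. Epithelial markers were apart as given above. The part of these sums in the calls of Hmox1, Gclc and Gsr was not tested.

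The genes of glutathione synthesis did not move as one in eWAT. Gclc had 36.2, 39.9, 24.7 and 29.3 CPM on ND and 24.5, 24, 17.2, 16.3 and 24.6 CPM on HFD, so that the lowest ND-fed library lay just above the highest HFD-fed one. Its log2 fold change was -0.62 ± 0.16 (adjusted p = 0.00752), and without the ND-fed library with epididymis transcripts it was -0.51 ± 0.17 (adjusted p = 0.0305). Gclm, whose product binds GCLC and eases its feedback inhibition, had 51.0, 78.9, 46.7 and 54.7 CPM on ND and 51.4 to 64.7 CPM on HFD, with a log2 fold change of -0.03 ± 0.14 (adjusted p = 0.888). Gsr fell from 45.2, 51.7, 47.7 and 53.6 CPM to 39.5, 36.7, 38.6, 41.2 and 45 CPM, again without overlap but by a narrow margin, with a log2 fold change of -0.32 ± 0.10 (adjusted p = 0.0215). The call for Gsr was lost with the header number range as a term (log2 fold change of -0.29 ± 0.14, adjusted p = 0.151).

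Slc7a11 and Nqo1 depended on 1 library. Slc7a11 had 1.66, 17.7, 0.575 and 0.485 CPM in the ND-fed libraries and 0.504, 0.872, 1.08, 0.757 and 1.49 CPM in the HFD-fed ones. Apart from the 954 reads of ND-fed library 2, the counts behind these levels were 21 to 94 reads per library. The fitted log2 fold change was -2.42 ± 0.88 (adjusted p = 0.0398), yet the other 3 ND-fed libraries lay within or next to the HFD-fed range. Without library 2 the mean of Slc7a11 fell under the filter, so that it had no test there. Nqo1 had 6.4, 35.3, 6.30 and 6.79 CPM on ND and 2.57, 5.02, 4.83, 3.73 and 9.08 CPM on HFD, with a log2 fold change of -1.43 ± 0.51 (adjusted p = 0.0362). Without library 2 it was -0.38 ± 0.34 (adjusted p = 0.406). In the 3 eWAT groups, the library with the largest epididymis sum was each time also the highest of its group in Nqo1, and in the HFD-fed wild type group this was library 5, with 165.5 CPM of epididymis markers and 9.08 CPM of Nqo1.

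The same library decided the call of Srxn1, the sulfiredoxin. Srxn1 had 34.3, 98.4, 28.5 and 32.9 CPM on ND and 60.2, 58.1, 49.4, 67.7 and 59.0 CPM on HFD. Library 2 lay above all others, and the other 3 lay below every HFD-fed library. Over all libraries the log2 fold change was 0.27 ± 0.32 (adjusted p = 0.507), and without library 2 it was 0.86 ± 0.21 (adjusted p = 0.00767). Txnrd1, which sits beside Srxn1 in the thioredoxin branch, had 55.8 to 85.8 CPM on ND and 58.1 to 84.8 CPM on HFD and was not called (log2 fold change of 0.05 ± 0.14, adjusted p = 0.781).

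The genotype was then compared in eWAT of HFD-fed mice. Hmox1 was 2.80-fold lower in Acod1-/- than in wild type mice, Txnrd1 was 1.28-fold lower and Gclc 1.33-fold higher. These were the 3 calls among the 10 genes, where 9.13% of all genes tested were higher and 10.8% lower. Hmox1 had 40, 34, 30.4, 27.7 and 83.4 CPM in the 5 HFD-fed Acod1-/- libraries, a mean of 43.1 ± 23.0 CPM (SD, n = 5). Libraries 1 to 4 lay below every HFD-fed wild type library, and library 5 lay just above the lowest wild type library, at 82.2 CPM. The log2 fold change was -1.49 ± 0.31 (adjusted p = 0.0129). It was -1.88 ± 0.24 without library 5 (adjusted p = 0.000954) and -1.99 ± 0.21 among the libraries of the first header number range, 4 of each genotype (adjusted p = 0.00139). The first range also leaves out library 5 of both genotypes, so that these values do not stand apart from each other.

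The macrophage markers divided these libraries in the same way. Their sum was 576.6 to 885.5 CPM in Acod1-/- libraries 1 to 4 and 1858 CPM in library 5, against 2092 to 6347 CPM in wild type mice. Of the 12 markers, 10 were called lower in Acod1-/- eWAT. Mertk (0.31 ± 0.26, adjusted p = 0.461) and Cd163 (0.07 ± 0.30, adjusted p = 0.897) were not called, these values being log2 fold changes. Among those called lower, Adgre1 and Cd68 had group means of 36.8 and 51.5 CPM in Acod1-/- and of 207.3 and 337.5 CPM in wild type mice. Fibroblast and progenitor markers moved alike, with a sum of 1743 to 2351 CPM in Acod1-/- libraries 1 to 4 and 3435 CPM in library 5, against 3135 to 6200 CPM in HFD-fed and 1829 to 2256 CPM in ND-fed wild type mice. The part of either cell type in the lower Hmox1 was not tested.

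Srxn1 followed the same division without passing the threshold. It had 33.5, 31.4, 31.9, 31.5 and 60.7 CPM in Acod1-/- mice, so that libraries 1 to 4 lay close together and below all wild type libraries, and library 5 lay among the wild type values. The log2 fold change was -0.63 ± 0.30 (adjusted p = 0.186). It passed the threshold without library 5 (-0.87 ± 0.31, adjusted p = 0.063) and within the first number range (-0.86 ± 0.12, adjusted p = 0.00229). It also did so without ND-fed library 2 (-0.64 ± 0.17, adjusted p = 0.0344). That library entered this comparison only through the filter, scaling and estimate of spread that the eWAT groups share. The fit within the first range also left out library 5. Library 5 was high both in macrophage markers and in epididymis markers, and was the only one of its group in the second number range. Which of these its Srxn1 went with cannot be told apart.

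Gclc was the gene of the group that was higher in Acod1-/- eWAT. It had 29.6, 26.8, 26.8, 31.2 and 26.1 CPM, all above the 16.3 to 24.6 CPM of the HFD-fed wild type mice, next to an ND-fed wild type mean of 32.5 ± 6.82 CPM (SD, n = 4). The log2 fold change was 0.41 ± 0.15 (adjusted p = 0.0872). Txnrd1 had 50.6, 57.7, 60.8, 46.8 and 63.7 CPM in Acod1-/- against 58.1 to 84.8 CPM in wild type mice, with a log2 fold change of -0.35 ± 0.13 (adjusted p = 0.0968) and overlapping groups. Both calls lay near the threshold, and leaving out 1 library removed that of Gclc in 10 of 14 cases and that of Txnrd1 in 9 of 14 cases.

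The remaining genes gave no call for the genotype in eWAT. Nfe2l2 had 80, 53.6, 74.7, 71.1 and 70.7 CPM in Acod1-/- mice (log2 fold change of -0.21 ± 0.17, adjusted p = 0.423), and Keap1 had 59.9 to 75.1 CPM (0.12 ± 0.09, adjusted p = 0.418). Nqo1 measured 3.94 to 8.07 CPM, Gclm 54.7 to 67.7 CPM, Slc7a11 0.403 to 1.62 CPM and Gsr 37.3 to 48.1 CPM, and each range overlapped that of the HFD-fed wild type mice.

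Set against ND-fed wild type eWAT, HFD-fed Acod1-/- eWAT differed in 1 of the 10 genes, where 13.5% of all genes were higher and 13% lower. This was Slc7a11, at a log2 fold change of -2.68 ± 0.89 (adjusted p = 0.0546), and it again rested on ND-fed library 2. Hmox1 was at 0.65 ± 0.32 (adjusted p = 0.171) and Gclc at -0.21 ± 0.16 (adjusted p = 0.367) in this comparison. The log2 fold changes of the others, all with overlapping groups, were -0.22 for Nfe2l2, 0.18 for Keap1, -1.16 for Nqo1, 0.04 for Gclm, -0.30 for Txnrd1, -0.35 for Srxn1 and -0.18 for Gsr. This comparison shares its samples with the other 2, so that the 3 are not independent.

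**Figure D2:**
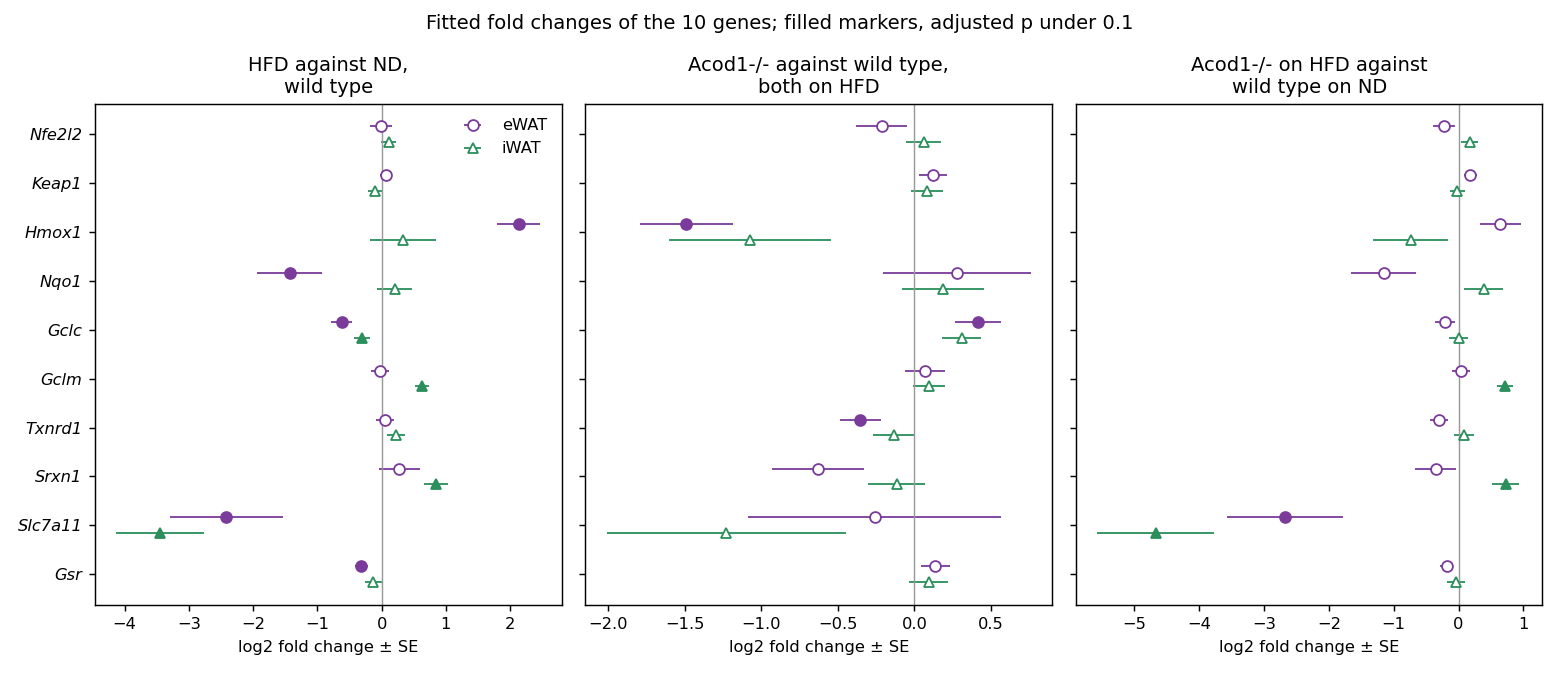
Points give the fitted log2 fold change and bars its SE for each gene in eWAT (circles) and iWAT (triangles), in 3 panels for the diet, the genotype on HFD and the contrast of HFD-fed Acod1-/- with ND-fed wild type mice. Filled markers have an adjusted p under 0.1. Hmox1 in eWAT stood at 2.13 for the diet and at -1.49 for the genotype.

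The diet was then compared in wild type iWAT. Srxn1 rose 1.80-fold and Gclm 1.54-fold, whereas Slc7a11 fell 10.9-fold and Gclc 1.24-fold, all 4 with no overlap between ND-fed and HFD-fed wild type mice. Among all 14801 genes tested in iWAT, 25.9% were higher and 24.2% lower.

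Gclm had 30.8, 32.6 and 38.6 CPM in the 3 ND-fed libraries and 51.2, 55.0, 53.5, 52.9 and 45.8 CPM in the 5 HFD-fed wild type libraries. The log2 fold change was 0.62 ± 0.11 (adjusted p = 0.0013). Srxn1 had 22.4, 16.8 and 30.4 CPM on ND and 41.2, 41.1, 39.6, 48.2 and 36.2 CPM on HFD, with a log2 fold change of 0.85 ± 0.19 (adjusted p = 0.00483). Both genes were thus higher in every HFD-fed library, and both calls remained with the header number range as a term, at 0.52 ± 0.14 for Gclm (adjusted p = 0.0206) and 0.75 ± 0.25 for Srxn1 (adjusted p = 0.0489).

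Slc7a11 had 4.42, 5.10 and 5.81 CPM on ND, from 191 to 264 reads, and 0.149, 0.127, 0.478, 0.415 and 1.11 CPM on HFD, from 5 to 55 reads. The log2 fold change was -3.45 ± 0.69 (adjusted p = 0.00257). Slc7a11 passed the filter only through the ND-fed libraries, which favoured the call of a fall. The ND-fed libraries were also those with lymph node markers, and the HFD-fed library with the most Slc7a11, library 5, had the largest lymph node sum of its group, 28.04 CPM. Lymphocyte markers summed to 495.3 to 776.5 CPM on ND and to 5.202 to 67.3 CPM on HFD. With all ND-fed libraries alike in this, the diet and the lymph node content cannot be told apart for Slc7a11, Gclm, Srxn1 or Gclc. Other marker sums also separated the diets in iWAT without overlap, from 952.1 to 1502 CPM on ND to 2627 to 5077 CPM on HFD for fibroblasts and progenitors, from 24810 to 29940 CPM to 42000 to 53100 CPM for adipocytes and from 393.5 to 519.4 CPM to 559.4 to 872.5 CPM for endothelial cells, and their part was not tested. Gclc had 31.8, 32.4 and 32.3 CPM on ND and 25, 24, 24.6, 24.9 and 29.6 CPM on HFD (log2 fold change of -0.31 ± 0.13, adjusted p = 0.0742), and its call was lost with the header number range as a term (-0.25 ± 0.18, adjusted p = 0.292) and in 7 of 11 fits that left out 1 library.

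The call for Hmox1 in iWAT turned on a single ND-fed library. Its levels were 27.2, 24.5 and 135 CPM on ND and 107, 72.0, 78.4, 94.7 and 38.9 CPM on HFD. Library 3 of the ND-fed group lay above all HFD-fed libraries and the other 2 lay below them. The log2 fold change was 0.33 ± 0.51 (adjusted p = 0.627), and without library 3 it was 1.59 ± 0.33 (adjusted p = 0.00517). The macrophage markers of library 3 summed to 509.8 CPM, next to 506.8 and 588 CPM in the other ND-fed libraries and 634.1 to 1548 CPM in the HFD-fed ones. The other genes gave no call. Nfe2l2 measured 54.5 to 68.1 CPM on ND and 58.7 to 72.0 CPM on HFD, Keap1 63.6 to 73.1 and 55.9 to 68.5 CPM, Nqo1 4.33 to 5.74 and 4.37 to 7.09 CPM, Txnrd1 51.9 to 59.4 and 58.8 to 68.9 CPM, and Gsr 41.7 to 50.4 and 37.6 to 47.1 CPM.

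For the genotype in iWAT, none of the 10 genes was called by edgeR, as was the case for all genes (0% higher and 0% lower, with 2468 genes at an unadjusted p under 0.05). Among the 10, Gclc alone had an unadjusted p under 0.05, and DESeq2 also called 0 of the 10, against 440 higher and 632 lower among all genes. Hmox1 had 36.2, 40.7 and 36.8 CPM in Acod1-/- mice, next to 38.9 to 107 CPM in wild type mice, with a log2 fold change of -1.07 ± 0.53 (adjusted p = 0.339). The lowest wild type library, library 5, lay among the Acod1-/- values, and it also had the fewest macrophage markers of its group, 634.1 CPM, beside 479.7 to 586 CPM in Acod1-/- mice. Within the first header number range, with 4 wild type and 2 Acod1-/- libraries, the value was -1.2 ± 0.19 (adjusted p = 0.0252). This range leaves out wild type library 5, the lowest of its group in Hmox1. Gclc had 28.1, 40.5 and 28.8 CPM in Acod1-/- mice, with a log2 fold change of 0.31 ± 0.13 (adjusted p = 0.257), the highest value being that of the library with epithelial markers. Srxn1 had 33.0, 45.6 and 38 CPM and Slc7a11 0.0765, 0.445 and 0.0973 CPM, the latter from 3, 14 and 4 reads. Nfe2l2, Keap1, Nqo1, Gclm, Txnrd1 and Gsr overlapped between the genotypes, with log2 fold changes of 0.06, 0.08, 0.19, 0.10, -0.13 and 0.09 in that order.

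HFD-fed Acod1-/- iWAT differed from ND-fed wild type iWAT in Gclm, Srxn1 and Slc7a11, where 18.5% of all genes were higher and 16.1% lower. The log2 fold changes were 0.72 ± 0.12 for Gclm (adjusted p = 0.00162), 0.73 ± 0.21 for Srxn1 (adjusted p = 0.0239) and -4.67 ± 0.90 for Slc7a11 (adjusted p = 0.00358), in each case without overlap of the groups. The other 7 genes overlapped, with log2 fold changes of 0.17 for Nfe2l2, -0.02 for Keap1, -0.74 for Hmox1, 0.39 for Nqo1, 0.001 for Gclc, 0.09 for Txnrd1 and -0.04 for Gsr. Slc7a11 passed the filter only through the ND-fed libraries, which favoured the call of a fall here as well. Lymph node markers summed to 346.4 to 563.9 CPM in the ND-fed and to 0.922 to 4.79 CPM in the Acod1-/- libraries. The difference between these groups and the lymph node content thus cannot be told apart for Gclm, Srxn1 or Slc7a11. The ND-fed samples are those of the diet comparison, so that these values do not stand apart from it.

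The depots were compared within each condition, with all 25 libraries in 1 fit. The labels do not tie an eWAT library to an iWAT library of the same mouse. On ND, Gclm was 1.70-fold higher in eWAT than in iWAT, at a log2 fold change of 0.77 ± 0.14 (adjusted p = 0.000484), and remained so without the library with epididymis transcripts (0.58 ± 0.12, adjusted p = 0.00145). Srxn1 (1.07 ± 0.33, adjusted p = 0.0215) and Nqo1 (1.49 ± 0.52, adjusted p = 0.0392) were called higher in eWAT as well, but not without that library, at 0.46 ± 0.22 for Srxn1 (adjusted p = 0.15) and 0.41 ± 0.36 for Nqo1 (adjusted p = 0.452). Hmox1 was called lower in eWAT (-1.18 ± 0.47, adjusted p = 0.0685), and without iWAT library 3 its value was 0.08 ± 0.39 (adjusted p = 0.911). Nfe2l2 (0.36), Keap1 (-0.20), Gclc (0.02), Txnrd1 (0.31), Slc7a11 (-0.004) and Gsr (0.08) were not called, these values being log2 fold changes of eWAT over iWAT. The value of Slc7a11 rested on the eWAT library with epididymis transcripts, at 17.7 CPM. The other eWAT libraries on ND had 0.485 to 1.66 CPM, against 4.42 to 5.81 CPM in iWAT. Its fits without 1 library each ran from -2.48 to 0.377, with a lowest adjusted p of 0.0232. Among all 15609 genes tested, 18.3% were higher and 14.1% lower in eWAT on ND. Every iWAT library of this comparison carried lymph node markers, with sums of 346.4 to 563.9 CPM against 4.68 to 25.4 CPM in the eWAT ones. The depot and the lymph node content thus cannot be told apart on ND, for Gclm or for the other genes.

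On HFD the depots did not differ by a call in any of the 10 genes. In wild type mice 11.3% of all genes were higher and 7.02% lower in eWAT, and in Acod1-/- mice 2.25% were higher and 1.97% lower. No member had an unadjusted p under 0.05 in either comparison, and DESeq2 called 0 of the 10 in both. The log2 fold changes of the 10 genes lay between -0.27 (Gclc) and 1.03 (Slc7a11) in wild type and between -0.21 (Gclc) and 1.94 (Slc7a11) in Acod1-/- mice. Srxn1 was the only one of the 10 without overlap, with 49.4 to 67.7 CPM in eWAT and 36.2 to 48.2 CPM in iWAT of HFD-fed wild type mice and a log2 fold change of 0.51 ± 0.27 (adjusted p = 0.223). Srxn1 passed at 0.49 ± 0.17 without ND-fed eWAT library 2 (adjusted p = 0.0637) and at 0.51 ± 0.10 when these 2 groups alone were fitted (adjusted p = 0.00971).

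The difference between the depots in their response to the diet was tested as an interaction, in which 28.7% of all genes were called. Gclm passed at -0.62 ± 0.18 on the log2 scale (adjusted p = 0.0185), its rise on HFD being found in iWAT, where it began lower. Without the eWAT library with epididymis transcripts the value was -0.45 ± 0.15 (adjusted p = 0.0349). All ND-fed iWAT libraries in this test carried lymph node markers, so that depot and lymph node content cannot be told apart here either. Hmox1 passed at 1.83 ± 0.61 (adjusted p = 0.0367), but was at 0.56 ± 0.48 (adjusted p = 0.462) without iWAT ND-fed library 3, whose Hmox1 was 135 CPM. Nqo1 passed at -1.62 ± 0.66 (adjusted p = 0.0824), a call lost in 9 of 25 fits that left out 1 library, and Slc7a11 did not, at 1.04 ± 1.2 (adjusted p = 0.582). Without the eWAT library with epididymis transcripts these were -0.56 (adjusted p = 0.418) for Nqo1 and 3.50 ± 0.95 (adjusted p = 0.0127) for Slc7a11. The other 6 genes were not called in this interaction, at values between -0.55 (Srxn1) and 0.20 (Keap1). For the interaction of depot with genotype, none of the 10 genes passed and none had an unadjusted p under 0.05, in a test that called 0.00641% of all genes by edgeR, while DESeq2 called 39 genes higher and 76 lower and 0 of the 10.

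**Figure D3:**
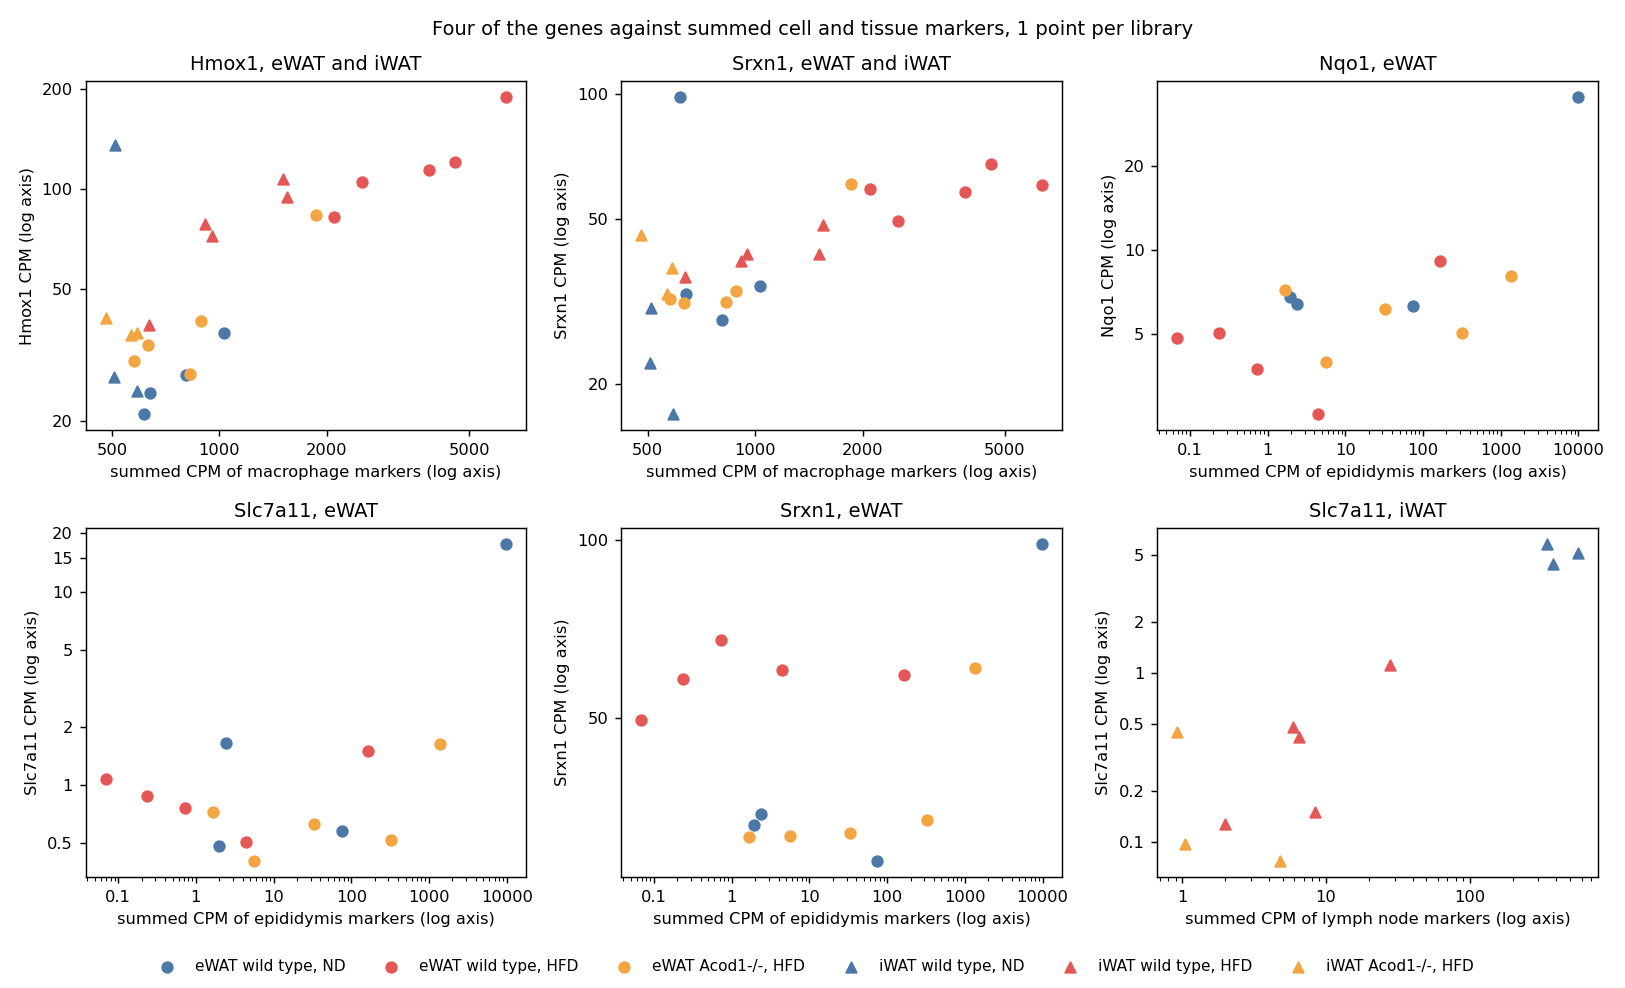
Each point is 1 library, with the CPM of a gene on the vertical and the summed CPM of a marker list on the horizontal axis, both on log scales, for macrophage markers (Hmox1, Srxn1), epididymis markers in eWAT (Nqo1, Slc7a11, Srxn1) and lymph node markers in iWAT (Slc7a11). The ND-fed eWAT library at 9802 CPM of epididymis markers is the highest of all in Nqo1, Slc7a11 and Srxn1, and the ND-fed iWAT library with 135 CPM of Hmox1 has 509.8 CPM of macrophage markers.

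The wider pathway was followed in 8 lists of genes next to the 10. Their counts stand beside the shares of all genes tested, for the diet 24.8% higher and 26.9% lower in eWAT and 25.9% higher and 24.2% lower in iWAT, and for the genotype in eWAT 9.13% higher and 10.8% lower. For the diet in iWAT, all ND-fed libraries carried lymph node markers, and the part of that tissue in the lists was not tested. For the diet in eWAT, the part of the marker sums that separated the diets, given with Hmox1, was not tested either. Among the haem and iron genes in eWAT, 6 of 8 rose and 1 fell on HFD, with a median log2 fold change of 0.84 against -0.04 over all genes tested. Blvra, which reduces the biliverdin that haem oxygenase releases, rose by 1.46 ± 0.20 on the log2 scale (adjusted p = 0.00035), from a mean of 28.9 to 80.4 CPM. Hmox2, the constitutive haem oxygenase, rose by 0.87 ± 0.10 (adjusted p = 0.000223), from 48.3 to 89.1 CPM. Fech, which inserts iron into protoporphyrin to form haem, fell by 0.28 ± 0.11 (adjusted p = 0.0543). With the number range as a term, 5 rose and 0 fell, the call of Fech being lost.

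In HFD-fed Acod1-/- eWAT, 4 of these 8 genes were lower than in wild type eWAT and 0 higher, beside 10.8% and 9.13% of all genes, with a median log2 fold change of -0.32 against 0.04 over all genes tested. The ferritin light chain gene Ftl1 was at -0.97 ± 0.19 (adjusted p = 0.0118), with mean levels of 1498 CPM in Acod1-/- and 2959 CPM in wild type mice, and Hmox2 at -0.35 ± 0.10 (adjusted p = 0.0336). Reads of Ftl1 can be shared with its processed pseudogenes, so that its level is uncertain. Haem and iron genes are strongly used by macrophages, most of whose markers moved in the same directions as given above. The part of macrophages in these counts was not tested. In iWAT 5 of the 8 rose on HFD and 0 fell, led by Blvra at 1.65 ± 0.15 (adjusted p = 6.6e-05) and the haem transporter gene Slc48a1 at 1.44 ± 0.18 (adjusted p = 0.000235).

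Of 14 genes for quinone and carbonyl detoxification other than Nqo1, 7 rose and 3 fell on HFD in eWAT, and 9 rose and 0 fell in iWAT, where the other 5 were not called. All genes tested gave 24.8% higher and 26.9% lower in eWAT and 25.9% and 24.2% in iWAT. In eWAT Nqo2 rose by 0.84 ± 0.11 (adjusted p = 0.000304) and the aldo-keto reductase gene Akr1b8 by 1.75 ± 0.24 (adjusted p = 0.000364), and in iWAT the prostaglandin reductase gene Ptgr1 rose by 1.79 ± 0.20 (adjusted p = 0.000147) and Nqo2 by 1.03 ± 0.14 (adjusted p = 0.000345). Ugt1a6a and Aldh3a1 fell in eWAT, with log2 fold changes of -1.99 ± 0.46 (adjusted p = 0.00443) and -5.55 ± 1.86 (adjusted p = 0.028), but Aldh3a1 had 11.6 CPM in the ND-fed library with epididymis transcripts and 0 to 0.375 CPM in the other 3, and fell under the filter without it. The median log2 fold changes of the list were 0.42 in eWAT and 0.72 in iWAT. Akr1b8 was lower in Acod1-/- than in wild type eWAT on HFD, at -1.05 ± 0.22 (adjusted p = 0.0136), as was the carbonyl reductase gene Cbr3, at -0.91 ± 0.30 (adjusted p = 0.0595), and Akr1a1 made 3 of 14 lower with 0 higher.

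Thioredoxin and peroxiredoxin genes were mixed on HFD. In eWAT 5 of 11 rose and 2 fell (all genes 24.8% and 26.9%), and in iWAT 6 rose and 1 fell (all genes 25.9% and 24.2%). With the number range as a term 3 rose and 1 fell in eWAT, and 3 rose and 0 fell in iWAT. Prdx4, a peroxiredoxin of the endoplasmic reticulum, rose by 1.18 ± 0.16 in eWAT (adjusted p = 0.000282) and by 1.29 ± 0.15 in iWAT (adjusted p = 0.000157). In eWAT Prdx5 also rose, by 0.97 ± 0.19 (adjusted p = 0.00166), and Sesn2 fell by 0.89 ± 0.21 (adjusted p = 0.00528), and in iWAT Prdx6 rose by 1.26 ± 0.15 (adjusted p = 0.000174). Txnip, which binds and inhibits thioredoxin, fell by 1.36 ± 0.30 in eWAT (adjusted p = 0.00322) and by 0.74 ± 0.26 in iWAT (adjusted p = 0.0429). With the number range as a term the calls of Txnip in iWAT (adjusted p = 0.259) and Sesn2 in eWAT (adjusted p = 0.121) were lost, and that of Txnip in iWAT was also lost without ND-fed library 3 (adjusted p = 0.101). In Acod1-/- eWAT on HFD 1 of the 11 was called, Prdx4, which was lower at -0.45 ± 0.14 (adjusted p = 0.0565).

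Of the genes for glutathione synthesis and peroxidases, 3 of 10 tested rose and 2 fell in eWAT and 4 of 9 rose and 2 fell in iWAT, counts near the shares of all genes in eWAT (24.8% and 26.9%). Those of all genes in iWAT were 25.9% and 24.2%. Gpx7 rose in both, by 1.23 ± 0.18 (adjusted p = 0.000409) and 1.85 ± 0.19 (adjusted p = 9.43e-05), and the secreted peroxidase gene Gpx3 fell in both, by 1.60 ± 0.35 (adjusted p = 0.00305) and 1.43 ± 0.24 (adjusted p = 0.00106). Glrx, a glutaredoxin, rose in eWAT by 1.19 ± 0.28 (adjusted p = 0.00508) and was lower in Acod1-/- than in wild type eWAT on HFD at -1.14 ± 0.26 (adjusted p = 0.0172), with 2 genes of the list lower and 0 higher there. Ggt1 had 13.6, 9.24, 0.425 and 11.96 CPM on ND in eWAT and 0 to 0.418 CPM on HFD, from 0 to 16 reads, so that the third ND-fed library lay just above the HFD-fed ones. Its log2 fold change was -5.69 ± 1.19 (adjusted p = 0.00263), and -5.67 ± 1.25 without the ND-fed library with epididymis transcripts (adjusted p = 0.00522). Ggt1 passed the filter only through the ND-fed group, which favoured the call of a fall. In iWAT the glutathione synthetase gene Gss rose by 0.55 ± 0.10 (adjusted p = 0.00156), and Gpx8 fell by 1.08 ± 0.27 (adjusted p = 0.00791).

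Several partners of NRF2 were called for the diet. Sqstm1, whose product p62 binds KEAP1, rose on HFD by 0.77 ± 0.12 in eWAT (adjusted p = 0.000579) and 0.96 ± 0.15 in iWAT (adjusted p = 0.000792). Gsk3b, whose kinase marks NRF2 for degradation, rose by 0.39 ± 0.11 (adjusted p = 0.0106) and 0.64 ± 0.11 (adjusted p = 0.000965). The small MAF genes Mafg and Mafk fell in eWAT, by 0.77 ± 0.16 (adjusted p = 0.00215) and 0.83 ± 0.23 (adjusted p = 0.0111). The repressor gene Bach2 fell in iWAT by 2.98 ± 0.47 (adjusted p = 0.00077), from a mean of 25.3 to 3.16 CPM. Bach2 is strongly used by B cells, and the lymphocyte marker sums of these libraries are those given for Slc7a11. In all, 3 of 11 rose and 4 fell in eWAT and 4 rose and 1 fell in iWAT, beside 24.8% and 26.9% of all genes in eWAT and 25.9% and 24.2% in iWAT. With the number range as a term 1 fell in eWAT, and Mafk lost its call (adjusted p = 0.158). For the genotype in eWAT, Btrc, a part of the ligase that acts with GSK3, was higher at 0.50 ± 0.11 (adjusted p = 0.0167) and Maff lower at -0.82 ± 0.29 (adjusted p = 0.0825).

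Genes that supply NADPH, on which TXNRD1, GSR and NQO1 draw, were led by G6pdx and Idh1. In iWAT G6pdx rose by 1.32 ± 0.19 (adjusted p = 0.000431) and Idh1 by 0.85 ± 0.13 (adjusted p = 0.000574), and in eWAT by 0.50 ± 0.18 (adjusted p = 0.0403) and 0.70 ± 0.15 (adjusted p = 0.00241). The transketolase gene Tkt fell in both, by 1.39 ± 0.30 in iWAT (adjusted p = 0.00358) and 1.21 ± 0.30 in eWAT (adjusted p = 0.00645). Thus 3 of 6 rose and 1 fell in iWAT (2 and 1 with the number range as a term), and 2 rose and 1 fell in eWAT, the latter near the shares of 24.8% and 26.9% of all genes. G6pdx lost its call in eWAT without the ND-fed library with epididymis transcripts (adjusted p = 0.113). Of 4 genes for superoxide dismutases and catalase, Sod2 and Sod3 rose in both depots, by 0.96 ± 0.24 (adjusted p = 0.00621) and 0.85 ± 0.21 (adjusted p = 0.00646) in eWAT and by 0.49 ± 0.15 (adjusted p = 0.0235) and 1.59 ± 0.25 (adjusted p = 0.000747) in iWAT, and Cat fell in eWAT by 0.44 ± 0.17 (adjusted p = 0.0552). Of 6 export transporter genes, Abcc2 rose in eWAT (3.58 ± 0.83, adjusted p = 0.00435) and iWAT (3.19 ± 0.89, adjusted p = 0.015), Abcc3 rose in iWAT (1.62 ± 0.20, adjusted p = 0.000219), Abcc1 fell in eWAT (-0.43 ± 0.13, adjusted p = 0.0163) and Abcc5 fell in both (-0.44 ± 0.19, adjusted p = 0.0799, and -0.38 ± 0.16, adjusted p = 0.0705). With the number range as a term, the calls of Cat (adjusted p = 0.259), Abcc1 (adjusted p = 0.114) and Abcc5 (adjusted p = 0.109) in eWAT and of Sod2 (adjusted p = 0.114) and Abcc5 (adjusted p = 0.122) in iWAT were lost. Abcc5 in eWAT was also not called without the ND-fed library with epididymis transcripts (adjusted p = 0.106). Abcc2, with means on ND of 0.134 CPM in eWAT and 0.408 CPM in iWAT, passed the filter only through the HFD-fed groups. None of the genes of these 3 lists was called for the genotype in eWAT, and no gene of the 8 lists was called for it in iWAT, where edgeR called no gene at all.

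**Figure D4:**
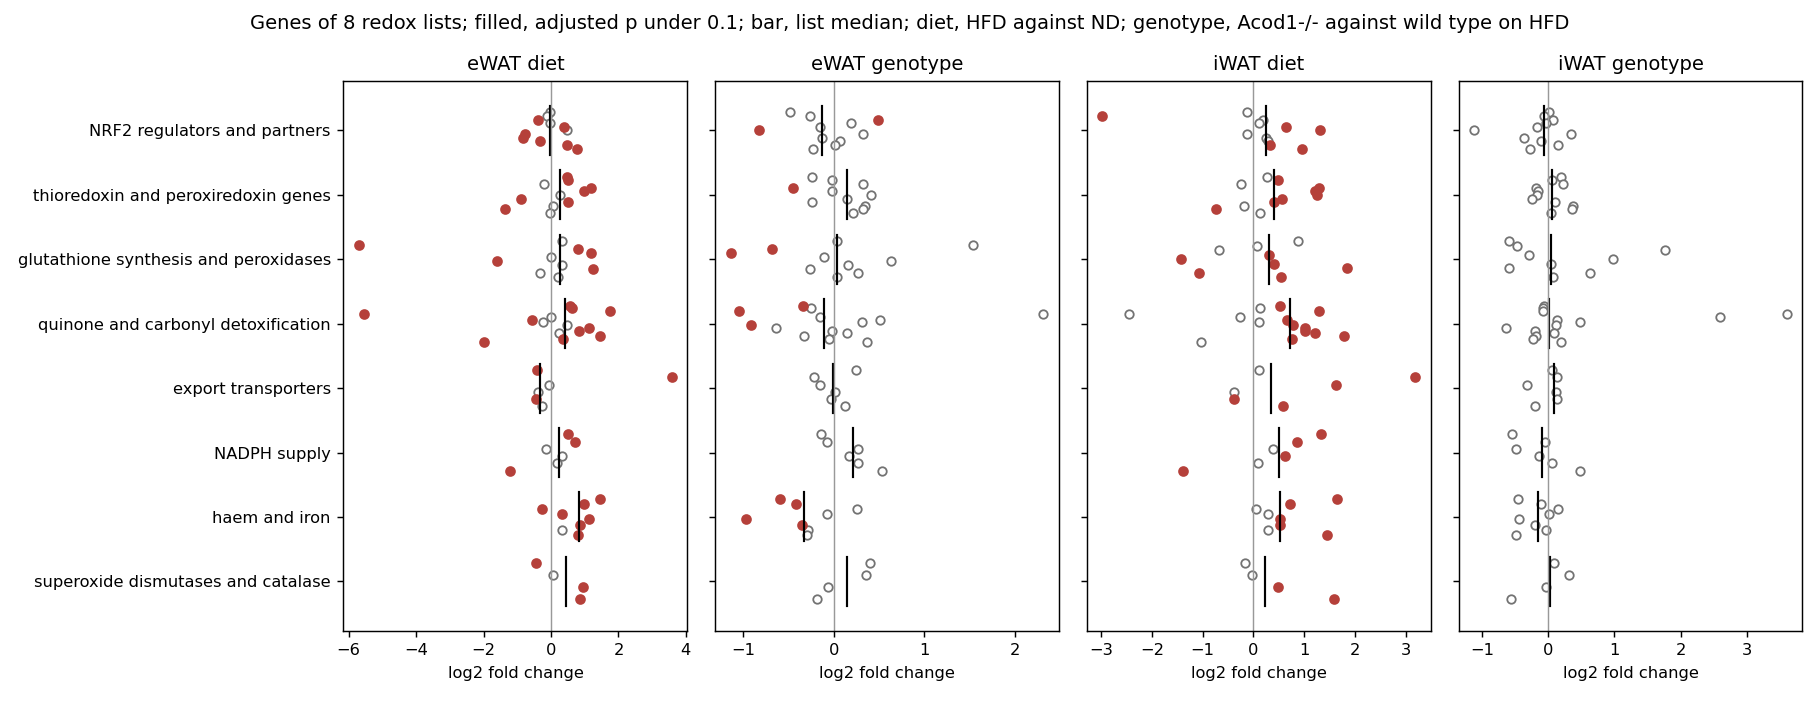
Each point is a gene of 1 of 8 redox lists, placed by its log2 fold change for the diet in wild type mice or for the genotype on HFD in each depot, filled where the adjusted p was under 0.1, with a bar at the median of the list. The haem and iron list has its median at 0.84 for the diet and at -0.32 for the genotype in eWAT.

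The likeness of the 10 genes was measured as the root mean square difference of their centred log2 CPM over the 25 libraries, which share depots, diets and admixed tissue. The nearest member of Srxn1 was Gclm at 0.37, which ranked 38 among all 15609 genes by nearness to Srxn1. For the other genes the nearest member ranked between 242 (Gclm for Nqo1, at 0.58) and 1540 (Keap1 for Gclm, at 0.32). The nearest of all genes to Hmox1 were Gmnn, Ctsz and Plin2 at 0.45 to 0.51, those to Srxn1 were Nucb2, Glb1 and Uxs1 at 0.29 to 0.31, and those to Nfe2l2 were Msl3, Hs1bp3 and Sptlc2 at 0.15 to 0.17. Slc7a11 had no gene nearer than Nxpe3 at 0.89.

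The 10 genes lie on 5 chromosomes of GRCm38 and are all annotated as protein-coding. Nfe2l2 and Srxn1 are on chromosome 2 (75675513 to 75704641 and 152105516 to 152111376), Slc7a11 and Gclm on chromosome 3 (49892526 to 50443614 and 122245557 to 122270732) and Keap1 and Gclc on chromosome 9 (21229730 to 21239361 and 77754535 to 77794485). Gsr, Hmox1 and Nqo1 are on chromosome 8 (33652523 to 33698163, 75093621 to 75100589 and 107388225 to 107403206) and Txnrd1 is on chromosome 10 (82833951 to 82897712). Hmox1, Nqo1, Gclc and Srxn1 overlap no other annotated gene. Keap1, Gclm, Txnrd1 and Slc7a11 overlap genes on the opposite strand, and since the strand setting of the counting is not given in the sources used here, reads of such partners cannot be told apart from theirs.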

How the data were processed

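RNA of 25 fat samples had been sequenced by the study as strand-marked, barcoded mRNA libraries. Reads were trimmed with cutadapt and aligned with STAR to the mouse genome mm10 by the authors. The deposited files hold whole-number read counts per gene beside FPKM values, which were not used, and the counting program is not given in the sources used here. Summary rows that name no gene were left out. Reads without a feature came to 6.41 to 11.9% of each library. Cutadapt, STAR and bedtools are named in the submitters' processing notes.

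A gene was tested in a depot where its mean reached 1 CPM, and in the fit over both depots where it did so in either. TMM-scaled counts were tested with the quasi-likelihood F test of edgeR 4.0.16 in R 4.3.3, with 1 coefficient per group, and p-values were adjusted by Benjamini-Hochberg over all genes tested, with calls at 0.1. SEs were taken from the F statistic. CPM are TMM-scaled, and a prior count of 2 was added for log2 CPM. The script was tested on simulated counts. The members and lists were chosen with earlier results of these data known, and the epididymis and lymph node lists were chosen after seeing the data. The rule for names took all 10 members and, from each list, at most 2 calls per direction, by adjusted p, for diet and genotype. The 2 HFD depot comparisons and the interactions give uncalled members as a range or a count. Marker genes and genes named beyond this were chosen after their values were seen. Alternatives covered filters, scaling, DESeq2 1.42.0, groups fitted, blocks, header number ranges and each library left out. The labels number the samples of a group without saying that each is a separate mouse, so the p-values measure the spread between samples. Gene positions are from GENCODE vM21 and promoters from RefSeq (GRCm38.p6).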

Additional observations from a re-analysis of the deposited data

Results flagged for a closer look

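Of 40 sets of 4 or 5 libraries (10 genes in 4 groups), 7 had a library that stood apart from the others by Dixon's criterion, which chance meets in about 1 set in 20. Library 2 of the ND-fed wild type eWAT group accounted for 3 of them, at 35.3 CPM for Nqo1 (next highest 6.79 CPM), 98.4 CPM for Srxn1 (next 34.3 CPM) and 17.7 CPM for Slc7a11 (next 1.66 CPM). Library 5 of the HFD-fed Acod1-/- eWAT group accounted for another 3, at 83.4 CPM for Hmox1 (next 40 CPM), 60.7 CPM for Srxn1 (next 33.5 CPM) and 1.62 CPM for Slc7a11 (next 0.724 CPM). These are the 2 eWAT libraries with the largest epididymis marker sums. Library 5 of the HFD-fed wild type iWAT group was the last, at 29.6 CPM for Gclc (next 24.9 CPM). This library and library 5 of the HFD-fed Acod1-/- eWAT group were the only ones of their groups in the second header number range.

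The diet effect differed between the depots by the interaction test for Hmox1 (1.83 on the log2 scale, eWAT minus iWAT), Nqo1 (-1.62) and Gclm (-0.62). Of 25 fits that each left out 1 library, that of Hmox1 lost its call in 1 (iWAT ND-fed library 3), that of Nqo1 in 9 and that of Gclm in 0. None of these fits was free of the ND-fed iWAT libraries with lymph node markers.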

How the results depend on the processing

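Most values kept their direction and their side of the threshold. Over the alternatives, 2707 of 2956 results for the 10 genes did so, 84 lost and 31 gained a call, 133 uncalled values changed sign, and 1 was reversed. The reversal was Hmox1 on ND, eWAT against iWAT, whose fits without 1 library each ran from -1.58 to 0.083 on the log2 scale. The number of the 10 genes called moved by over 1.5 times as follows, and the cause was not tested. These counts, and those of the fits below, are given without the share of all genes called under the same setting. They are thus not a result about the 10 genes in particular. For the diet in eWAT it was 2 with the header number range as a term. For the genotype in eWAT it was 1 with no filter on low counts and 1 at an adjusted p under 0.05. For HFD-fed Acod1-/- against ND-fed wild type eWAT it was 0 with at least 1 CPM in every library, 0 at an adjusted p under 0.05, 0 with only the groups compared, 0 with the number range as a term and 0 without the 2 libraries with most epididymis transcripts, an alternative chosen after seeing the data. For the genotype in iWAT it was 1 (Hmox1) in the first number range alone. Between depots it was 2 on ND and 1 in HFD-fed wild type mice with only the groups compared, and without those 2 libraries it was 1 in HFD-fed wild type mice and 1 for the interaction of depot with genotype.

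Leaving out each library in turn gave 4 to 5 calls for the diet and 1 to 4 for the genotype in eWAT, 0 to 3 for HFD-fed Acod1-/- against ND-fed wild type eWAT, 3 to 5 for the diet and 0 to 1 for the genotype in iWAT, 3 in every fit for the third iWAT comparison, 2 to 5 between depots on ND, 0 to 1 in HFD-fed wild type mice, 0 in HFD-fed Acod1-/- mice, and 1 to 3 and 0 for the interactions of depot with diet and genotype. The labels do not say what a replicate number shares. In 0 of 9 pairs of groups did every same-numbered pair of samples correlate above 0.1 (range -0.302 to 0.468), so the pairing was not used, although the same-number mean was above that of other pairs in 8 of 9 and in 1 (the depots on ND) every sample correlated best with its own number. With a replicate block, calls were 4, 2 and 0 in the 3 eWAT comparisons, 3, 0 and 3 in the iWAT ones and 2 between depots on ND. Slc7a11 had no eWAT test where its mean fell under the filter, and DESeq2 gave its adjusted p for the eWAT diet as NA.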
